A study of Mus musculus with 9 samples.

Results

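Core histone genes are the genes that code for the H2A, H2B, H3 and H4 proteins of the nucleosome and that are transcribed mainly while DNA is copied. Their RNA was measured by sequencing in BV2, an immortalised cell line made from mouse microglia, which are the brain's own macrophages. The genes were taken by name, as every gene whose symbol starts with Hist1h, Hist2h, Hist3h or Hist4h followed by 2a, 2b, 3 or 4, which leaves out the linker H1 genes. This gave 61 of the 21951 genes of the table, 18 for H2A, 18 for H2B, 12 for H3 and 13 for H4. The symbols are the older mouse names, in which Hist1 to Hist4 are the clusters the genes lie in.

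Each of 3 groups held 3 libraries. Triol-irradiated cells received 10 µM triol for 30 min before 10 Gy of X-rays. The triol is a man-made steroid, which the titles name 5α-androst-3β,5α,6β-triol. Irradiated cells received vehicle, 20% hydroxypropyl-β-cyclodextrin, for 30 min before the same dose. Control cells received the vehicle and no irradiation. No vehicle is named for the triol-irradiated cells, and the treatment labels of their replicates 2 and 3 place the last hydroxyl at another position than the titles do. No group received triol alone, so an effect of triol by itself cannot be told apart from its effect on irradiated cells. How long after irradiation RNA was taken is not stated in the sources used here. No label says that libraries of a group are separate cultures, and the p-values then cover only the spread among these libraries, technical spread included.

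Replication-dependent histone genes lie in clusters, are short and mostly lack introns. Their messenger RNA usually ends not in a poly(A) tail but in a short hairpin, the histone stem-loop, which the stem-loop binding protein SLBP holds during processing, export, translation and decay. The transcripts accumulate as cells enter S phase and are degraded when DNA synthesis stops. Some of the same genes also give longer, polyadenylated transcripts, which are known from differentiated cells.

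The stem-loop is shown here because it is the sequence the genes share and because it marks where the usual transcript ends. The search was for a hairpin of 16 bases, with 6 paired bases on each side of a loop of 4. It covered the sense strand of all annotated transcripts of the genes, coding or not (GENCODE M21, mouse build GRCm38). The pattern was GGNNNTTNTNAGNNCC, with every stem base pairing with its partner on the other side. It was present in 42 of the 61 core histone genes (68.9%), against 14 of the other 21890 genes (0.064%). Those 14 include the linker genes Hist1h1c, Hist1h1d, Hist1h1e and Hist1h1t, the variant H2afx and Trim17, which overlaps Hist3h2a. The versions, taken from coding transcripts, are written below 5′ to 3′ as DNA, with the paired stem in capitals and the loop in lower case.
23 genes of the H2A, H2B and H3 classes, among them Hist1h2ac, Hist1h2bg, Hist1h3d and Hist2h3c2: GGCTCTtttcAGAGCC
7 H4 genes, among them Hist1h4c, Hist1h4h, Hist1h4m and Hist1h4n: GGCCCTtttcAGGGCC
5 genes, among them Hist1h3c: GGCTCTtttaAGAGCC
Hist1h4i and Hist2h4: GGCCCTttttAGGGCC
Hist1h4j and Hist1h4b: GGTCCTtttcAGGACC
Hist1h4a: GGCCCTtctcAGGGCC
Hist1h3g: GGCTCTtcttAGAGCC
Hist2h2ac: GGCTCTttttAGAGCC
All H2A, H2B and H3 genes with a match shared 1 stem and differed only in the loop, and the H4 genes with a match carried either of 2 other stems. The most abundant members, Hist1h2bc and Hist2h2be, had no match in their annotated transcripts. Many other genes without a match, such as Hist1h4k, Hist1h3i and Hist1h2bn, have annotated transcripts that end at the stop codon. Sequence beyond it was not searched there, so a missing match does not show that the hairpin is absent.

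The 9 libraries held 13879062 to 18944051 counts, of which 1392 to 4575 fell on the 61 genes. Of the 61 genes, 26 had enough reads to be tested, 28 were detected below that minimum with at most 22 reads in a library, and 7 had 0 reads in every library. Microglial markers were present throughout, with summed levels of 2510 to 2555 CPM, a read count scaled to the size of the library, in triol-irradiated, 2459 to 2558 in irradiated and 3267 to 3481 in control cells. Of 14 tested microglial markers, 11 were called lower in irradiated than in control cells, as were 2505 of all 11295 tested genes. Hepatocyte markers summed to 10.6 to 13.5 CPM in triol-irradiated, 4.51 to 7.18 in irradiated and 5.41 to 7.21 in control cells. Of 4 tested, 2 were called higher in triol-irradiated than in irradiated cells, where 0.106% of all tested genes were called. Neuron markers summed to 2.50 to 3.06 CPM in triol-irradiated, 1.21 to 2.12 in irradiated and 0.0652 to 0.744 in control cells. Astrocyte markers summed to 1.502 to 2.05 CPM in triol-irradiated, 1.96 to 2.07 in irradiated and 0.326 to 0.866 in control cells. The 1 tested neuron marker, Tubb3, and the 1 tested astrocyte marker, Slc1a2, were both called higher in irradiated than in control cells, as the histone genes were. In that comparison 22.1% of all tested genes were called higher. In all groups, oligodendrocyte markers summed to 34.5 to 45.2 CPM. Of the defining markers, hepatocyte Alb had 208 reads in triol-irradiated, 37 in irradiated and 21 in control cells, and neuronal Rbfox3 had 5 reads in triol-irradiated, 0 in irradiated and 1 in control cells. Neuronal Snap25 had 21 reads in triol-irradiated, 0 in irradiated and 7 in control cells. Astrocytic Gfap had 23 reads in triol-irradiated, 21 in irradiated and 4 in control cells, and Aqp4 had 0 in every library. The part of these shifts in the histone values was not tested. In bulk RNA, more cells that transcribe a gene and more RNA per cell cannot be told apart.

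Irradiated cells held more core histone RNA than control cells in every class. Between triol-irradiated and irradiated cells the libraries overlapped in the total and in the H2B, H3 and H4 sums, but not in the H2A sum. Most of that H2A difference lay in the scarce gene Hist1h2ae. Summed over the 61 genes, the level was 228, 232 and 240 CPM in the triol-irradiated libraries, 235, 242 and 229 CPM in the irradiated libraries and 100, 104 and 99.9 CPM in the control libraries. Both irradiated groups lay above every control library and overlapped each other. The means were 233 ± 6.23 CPM in triol-irradiated, 235 ± 6.47 CPM in irradiated and 102 ± 2.38 CPM in control cells (SD, n = 3 each). The ratio of the sums was 0.992 for triol-irradiated over irradiated cells, 2.32 for irradiated over control cells and 2.30 for triol-irradiated over control cells.

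A pair of H2B genes, Hist1h2bc and Hist2h2be, carried most of these reads, with 65.7% to 67.3% in triol-irradiated, 65.6% to 67.5% in irradiated and 79.2% to 84.3% in control libraries. Without these 2 genes the sum was 78.1, 75.7 and 82.0 CPM in triol-irradiated, 76.2, 82.5 and 78.8 CPM in irradiated and 15.8, 18.3 and 20.8 CPM in control libraries. The ratio of irradiated over control cells was then 4.33, and that of triol-irradiated over irradiated cells 0.993. Most of the total is therefore set by the 2 genes, while the ratio of the other 59 was larger.

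**Figure D1:**
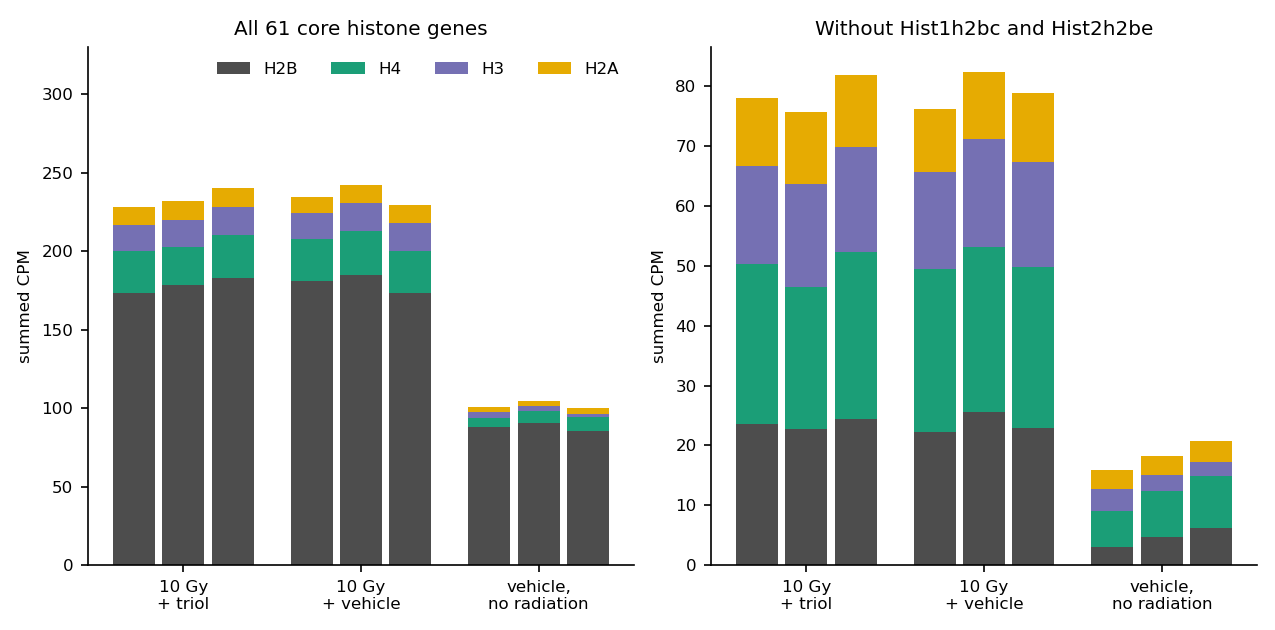
Summed CPM of the core histone genes in each library (bars), stacked by class, for triol-irradiated, irradiated and control cells from left to right. The left panel holds all 61 genes and the right panel leaves out Hist1h2bc and Hist2h2be, and in both the 6 irradiated bars stand above the 3 control bars.

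By class, the H3 sum differed most from control. It was 16.4, 17.2 and 17.6 CPM in triol-irradiated, 16.3, 18.1 and 17.5 CPM in irradiated and 3.61, 2.69 and 2.35 CPM in control libraries, a ratio of 6.00 for irradiated over control cells. The H4 sum was 26.8, 23.8 and 27.9 CPM in triol-irradiated, 27.1, 27.6 and 27.0 CPM in irradiated and 5.99, 7.67 and 8.80 CPM in control libraries, a ratio of 3.64. The H2A sum was 11.5, 12.01 and 12.1 CPM in triol-irradiated, 10.5, 11.2 and 11.4 CPM in irradiated and 3.18, 3.26 and 3.52 CPM in control libraries, a ratio of 3.32. The H2A sum was the one in which every triol-irradiated library lay above every irradiated one, with a ratio of 1.07. Among single tested genes, 7.35% lay entirely higher in that comparison. Most of the H2A difference lay in Hist1h2ae, with 72 reads in triol-irradiated and 28 in irradiated cells. In these 3 classes every irradiated library lay above every control library. The H2B sum was 173, 179 and 183 CPM in triol-irradiated, 181, 185 and 173 CPM in irradiated and 87.7, 90.6 and 85.2 CPM in control libraries, a ratio of 2.05 for irradiated over control cells. Without Hist1h2bc and Hist2h2be, the H2B sum averaged 23.5 ± 0.800 CPM in triol-irradiated, 23.6 ± 1.74 CPM in irradiated and 4.598 ± 1.55 CPM in control cells (SD, n = 3 each), a ratio of 5.13 for irradiated over control cells. H2B genes made up 76.0% to 77.1% of the core histone CPM in triol-irradiated, 75.6% to 77.0% in irradiated and 85.3% to 87.3% in control libraries.

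Mouse H3 genes of these clusters code for either of 2 proteins, H3.1 or H3.2, which differ in a single residue. The 4 genes for H3.1 summed to 6.86 ± 0.661 CPM in triol-irradiated, 6.62 ± 0.424 CPM in irradiated and 1.02 ± 0.244 CPM in control cells (SD, n = 3 each). The 8 genes for H3.2 summed to 10.2 ± 0.06003 CPM in triol-irradiated, 10.7 ± 1.33 CPM in irradiated and 1.86 ± 0.412 CPM in control cells. The ratio of irradiated over control cells was 6.49 for H3.1 and 5.73 for H3.2, and the difference between these ratios was not tested.

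The first comparison asked how 10 Gy of X-rays changed gene expression in vehicle-treated cells. Of the 26 tested core histone genes, 25 rose in irradiated cells and 0 fell (edgeR's quasi-likelihood test, Benjamini-Hochberg adjusted p under 0.05). In the same comparison, 22.1% of all 11295 tested genes were called higher and 44.3% were called in either direction. The median log2 fold change was 2.41 over the 26 genes and 0.01 over all tested genes. The irradiated libraries lay above every control library for 23 of the 26 genes, against 25.2% of all tested genes. How the genes came to be tested bears on these counts. Of the 26, only 6 were over the minimum of the filter in every control library, 2 more in 1 or 2 of them, and 18 in none, so those 18 entered through the irradiated groups, where they are high. The 6 genes that passed in all control libraries were Hist2h2be, Hist1h4i, Hist1h3g, Hist1h2be, Hist1h2ac and Hist1h2bc, and each was called higher. The 35 untested genes together held 77, 81 and 75 reads in irradiated and 15, 20 and 19 reads in control libraries. Of the 28 untested genes with any read, 25 had a higher mean CPM in irradiated than in control cells and 1 a lower one.

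**Figure D2:**
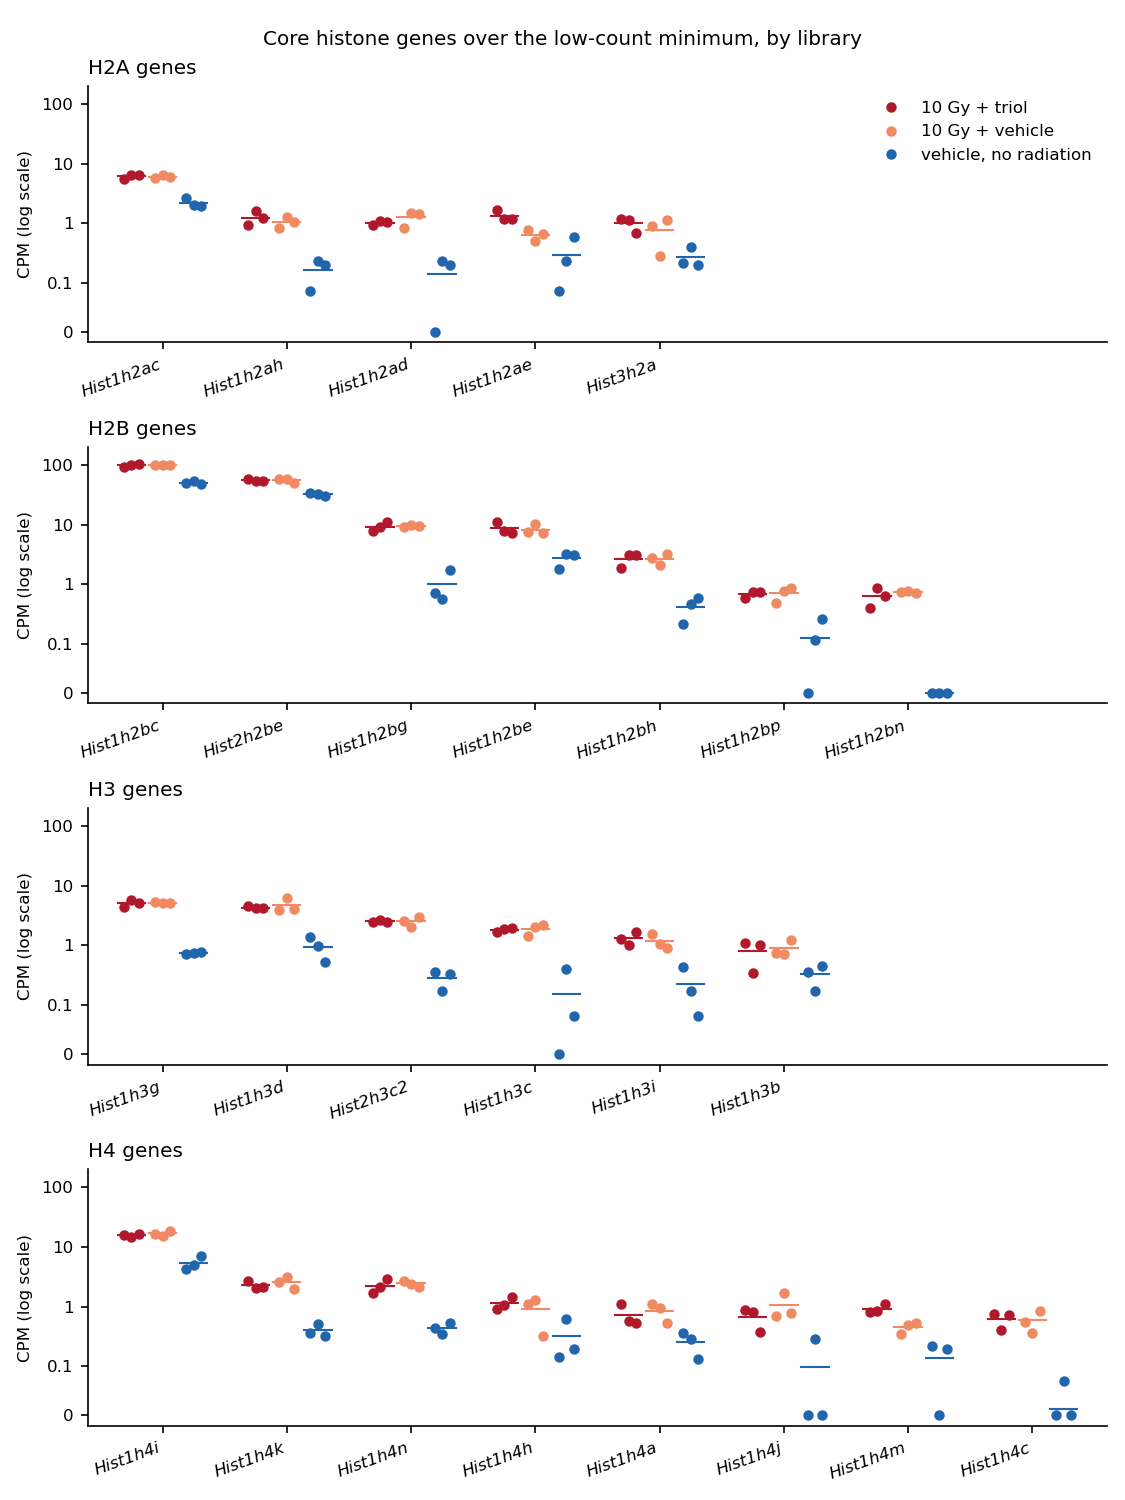
CPM of each tested core histone gene in each library (points, log axis with 0 drawn at the lowest mark) and group mean (lines), for triol-irradiated, irradiated and control cells from left to right within each gene. Panels are the H2A, H2B, H3 and H4 genes, and irradiated and control points are apart for 23 of the 26 genes.

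The H2B genes include the core histone genes with the most reads in these libraries. How messenger RNA was selected is not stated, so the order of the genes in the cells may differ. Hist1h2bc (ENSMUSG00000018102, chr13:23684199-23692908, plus strand, GRCm38) stood at 91.1, 102 and 105 CPM in triol-irradiated, 100, 102 and 99.5 CPM in irradiated and 50.02, 53.8 and 48.5 CPM in control libraries. All irradiated values exceeded all control values, and its log2 fold change was 0.99 in irradiated over control cells (SE 0.05, adjusted p = 1.9e-19). Hist2h2be (ENSMUSG00000068854, chr3:96221119-96223738, plus strand), which codes for a variant H2B known from olfactory neurons of the mouse, stood at 58.8, 53.7 and 53.3 CPM in triol-irradiated, 58.1, 57.4 and 50.7 CPM in irradiated and 34.6, 32.2 and 30.6 CPM in control libraries. Its log2 fold change of 0.77 (SE 0.06, adjusted p = 3.52e-13) was the lowest of the 26 genes, although the groups did not overlap. Hist1h2bg, another H2B gene, stood at 7.86, 9.10 and 10.97 CPM in triol-irradiated, 9.09, 9.78 and 9.61 CPM in irradiated and 0.722, 0.573 and 1.76 CPM in control libraries. Its log2 fold change was 3.23 (SE 0.22, adjusted p = 4.04e-15), and control replicate 3 was the highest of the control libraries.

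The other tested H2B genes also rose, Hist1h2be by a log2 fold change of 1.57, Hist1h2bh by 2.62 and Hist1h2bp by 2.39. Hist1h2bn had 7, 15 and 12 reads in triol-irradiated, 11, 11 and 11 reads in irradiated and 0 reads in each control library. Against a floor of 3 counts over the control group, it was at least 11.7-fold higher in irradiated than in control cells and at least 9.81-fold higher in triol-irradiated than in control cells.

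Among the H2A genes Hist1h2ac (ENSMUSG00000069270, chr13:23681467-23683948, minus strand) was the most abundant, at 5.55, 6.37 and 6.41 CPM in triol-irradiated, 5.68, 6.43 and 5.88 CPM in irradiated and 2.60, 2.004 and 1.95 CPM in control libraries. Its log2 fold change in irradiated over control cells was 1.46 (SE 0.18, adjusted p = 7.79e-09), with no overlap between the groups. Hist1h2ah stood at 16, 28 and 23 reads in triol-irradiated, 12, 18 and 16 reads in irradiated and 1, 4 and 3 reads in control libraries, a log2 fold change of 2.56 (SE 0.53, adjusted p = 9.03e-05). Hist1h2ad stood at 16, 19 and 20 reads in triol-irradiated, 12, 21 and 22 reads in irradiated and 0, 4 and 3 reads in control libraries, a log2 fold change of 2.999 (SE 0.54, adjusted p = 1.1e-05). Both genes were low in every control library, and their intervals are wide because few reads stand behind them.

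Hist1h2ae was the only tested member not called in irradiated over control cells. It had 29, 21 and 22 reads in triol-irradiated, 11, 7 and 10 reads in irradiated and 1, 4 and 9 reads in control libraries. The irradiated and control libraries overlapped, since control replicate 3 lay above irradiated replicate 2 in reads, and at 0.586 CPM against 0.4997 CPM. The log2 fold change was 1.07 (SE 0.55, 95% interval -0.02 to 2.19, adjusted p = 0.104). Without control replicate 3 it was 1.94, with an adjusted p of 0.0196, and with limma-voom it was 1.33, with an adjusted p of 0.0346.

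All 6 tested H3 genes rose. Hist1h3g (ENSMUSG00000099517, chr13:23535422-23535951, plus strand), which codes for H3.1, stood at 4.39, 5.69 and 5.15 CPM in triol-irradiated, 5.27, 5.07 and 5.23 CPM in irradiated and 0.722, 0.744 and 0.782 CPM in control libraries. The log2 fold change was 2.78 (SE 0.24, adjusted p = 4.95e-13), and the 3 control libraries lay close together. Hist1h3d, which codes for H3.2, stood at 4.51, 4.21 and 4.25 CPM in triol-irradiated, 3.90, 6.35 and 4.12 CPM in irradiated and 1.37, 0.973 and 0.521 CPM in control libraries, a log2 fold change of 2.33 (SE 0.26, adjusted p = 7.53e-10). Hist2h3c2, an H3.2 gene of the Hist2 cluster, stood at 43, 47 and 47 reads in triol-irradiated, 38, 28 and 46 reads in irradiated and 5, 3 and 5 reads in control libraries. Its log2 fold change was 3.15 (SE 0.37, adjusted p = 1.83e-09). For these 3 genes no control library reached an irradiated one. The other tested H3 genes rose by log2 fold changes of 3.41 for Hist1h3c, 2.42 for Hist1h3i and 1.48 for Hist1h3b.

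All mouse H4 genes of these clusters code for the same protein. Hist1h4i (ENSMUSG00000060639, chr13:22040636-22041362, minus strand) held most of the H4 reads, at 15.6, 14.7 and 16.5 CPM in triol-irradiated, 16.8, 15.6 and 18.4 CPM in irradiated and 4.26, 4.92 and 7.10 CPM in control libraries. Its log2 fold change in irradiated over control cells was 1.64 (SE 0.13, adjusted p = 2.48e-14). Hist1h4k stood at 2.72, 2.05 and 2.10 CPM in triol-irradiated, 2.60, 3.14 and 1.96 CPM in irradiated and 0.361, 0.515 and 0.326 CPM in control libraries, a log2 fold change of 2.63 (SE 0.35, adjusted p = 3.03e-08). Neither gene overlapped between irradiated and control libraries. Hist1h4n stood at 1.68, 2.11 and 2.89 CPM in triol-irradiated, 2.74, 2.43 and 2.16 CPM in irradiated and 0.433, 0.344 and 0.521 CPM in control libraries, a log2 fold change of 2.48 (SE 0.35, adjusted p = 1.12e-07). The other tested H4 genes, Hist1h4a, Hist1h4c, Hist1h4h, Hist1h4j and Hist1h4m, rose with log2 fold changes of 1.36 to 4.36. The highest of these was Hist1h4c, which had 26 reads over the irradiated libraries and 1 over the control libraries. Its ratio at equal depth was 27.6, with a 95% counting interval of 4.54 to 1132.

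The calls of 5 genes with few reads rested on single libraries. For Hist3h2a, an H2A gene of the Hist3 cluster with a log2 fold change of 1.45 and 4 reads in irradiated replicate 2, the call in irradiated over control cells ended without control replicate 1 (adjusted p = 0.0758), control replicate 3 (0.0857), irradiated replicate 1 (0.0797) or irradiated replicate 3 (0.185). The call of Hist1h4h ended without control replicate 1 (adjusted p = 0.129), control replicate 3 (0.115), irradiated replicate 1 (0.113) or irradiated replicate 2 (0.18). That of Hist1h4m ended without control replicate 2 (adjusted p = 0.228), irradiated replicate 2 (0.0882) or irradiated replicate 3 (0.106). Hist1h3b was not called without control replicate 2 (adjusted p = 0.107) or irradiated replicate 3 (0.119), and Hist1h4a not without irradiated replicate 1 (0.0559). Each of these 5 genes had at most 40 reads over the 3 irradiated libraries. The other 20 called genes kept their calls when any single library was left out.

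**Figure D3:**
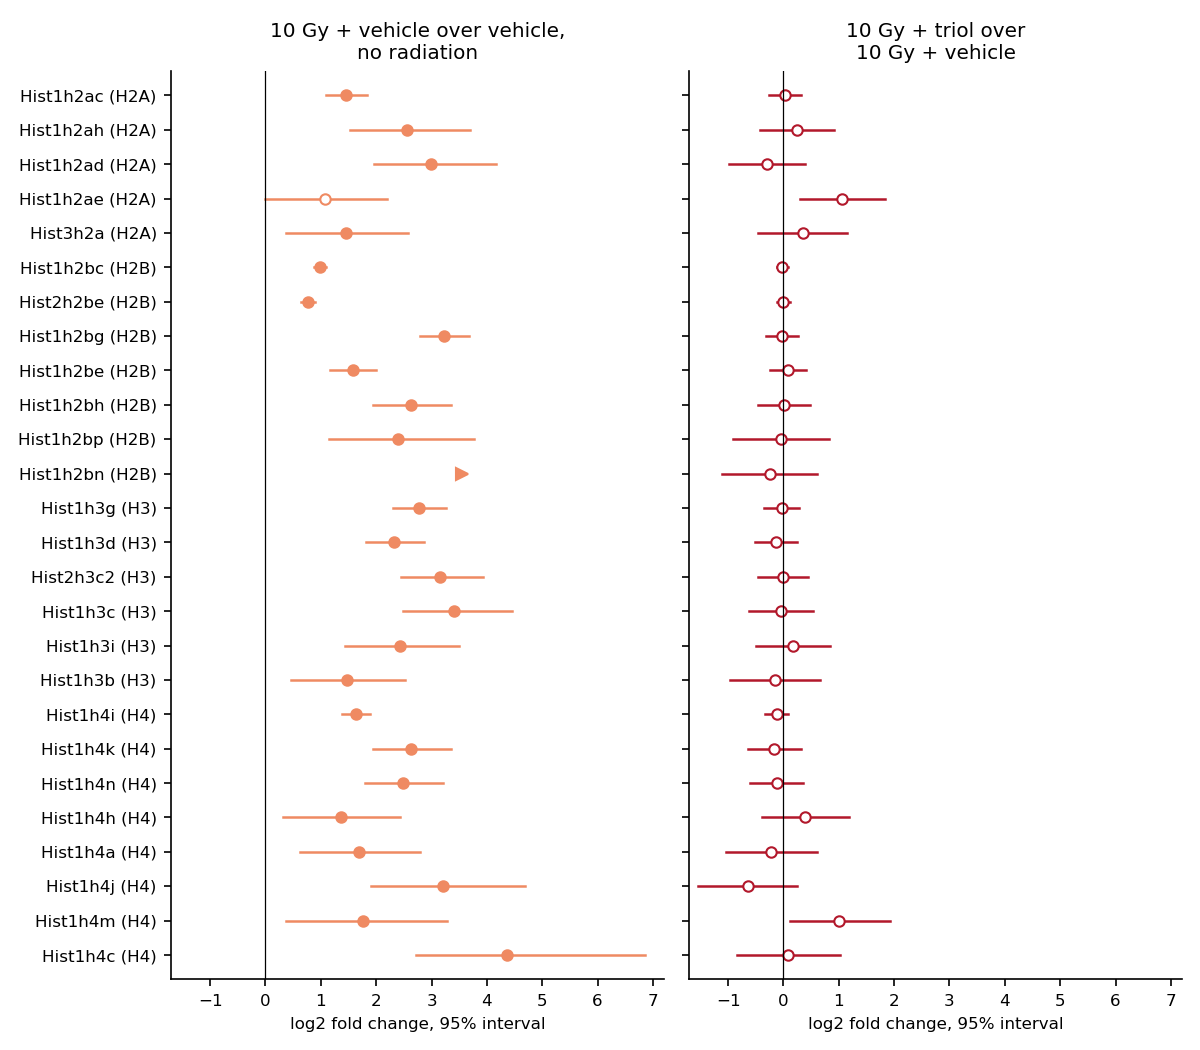
Log2 fold changes of the 26 tested core histone genes with 95% intervals, in irradiated over control cells (left) and triol-irradiated over irradiated cells (right). Filled points were called at an adjusted p under 0.05, open points were not, and the triangle for Hist1h2bn is a lower bound. Intervals on the left lie above 0 except that of Hist1h2ae, and those on the right cover 0 except those of Hist1h2ae and Hist1h4m.

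The next comparison asked whether triol before irradiation changed expression relative to irradiation after vehicle. Of the 26 tested core histone genes 0 passed the adjusted threshold with edgeR, and 2 had an unadjusted p under 0.05. In this comparison 0.106% of all tested genes were called and 7.66% had an unadjusted p under 0.05. limma-voom called 0 of the members as well, and DESeq2 gave 0 of the members an adjusted p. The median log2 fold change was -0.02 over the 26 genes, of which 10 had a positive and 16 a negative value.

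The abundant members set narrow limits. In triol-irradiated over irradiated cells, the log2 fold change was -0.02 for Hist1h2bc (95% interval -0.11 to 0.08) and 0.00 for Hist2h2be, with an interval of -0.12 to 0.12. It was -0.12 for Hist1h4i (-0.32 to 0.09), 0.03 for Hist1h2ac (-0.26 to 0.32) and -0.03 for Hist1h3g (-0.35 to 0.29). For each of these genes the interval excludes a change as large as the one between irradiated and control cells. At the scarce end, Hist1h4j had an interval of -1.54 to 0.24, which does not exclude a fall of more than 2-fold.

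Both members with an unadjusted p under 0.05 were scarce and were tested only because of their level with triol. Hist1h2ae was over the minimum of the filter in 3 triol-irradiated, 2 irradiated and 0 control libraries, and Hist1h4m in 3 triol-irradiated, 0 irradiated and 0 control libraries, where 3 libraries were needed. Their higher values with triol were favoured by this selection and are given as a description. Hist1h2ae stood at 1.68, 1.19 and 1.16 CPM in triol-irradiated and 0.752, 0.4997 and 0.653 CPM in irradiated libraries, a log2 fold change of 1.06 (SE 0.38, unadjusted p = 0.00774, adjusted p = 0.409). Hist1h4m stood at 0.809, 0.854 and 1.103 CPM in triol-irradiated and 0.342, 0.4997 and 0.523 CPM in irradiated libraries, a log2 fold change of 1.01 (SE 0.45, unadjusted p = 0.0264, adjusted p = 0.586). These were the 2 members whose libraries did not overlap in this comparison. Among all tested genes 7.35% lay entirely higher and 5.88% entirely lower with triol. Of the 28 untested members with reads, 14 had a higher and 14 a lower mean CPM in triol-irradiated than in irradiated cells.

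Triol-irradiated cells were also set against control cells, a comparison that shares its libraries with the other 2. All 26 tested members were called higher, against 21.5% of all tested genes called higher and 43.3% called in either direction. As above, 18 of the 26 were over the filter minimum in no control library and entered through the irradiated groups, where they are high. Hist1h2ae and Hist1h4m were tested only because of their level with triol. This selection favours the count of calls, the median and the count of genes without overlap. The median log2 fold change over the 26 genes was 2.42, against 0.00 over all tested genes. The log2 fold change was 0.97 (SE 0.05) for Hist1h2bc, 0.77 (SE 0.06) for Hist2h2be, 3.2 (SE 0.22) for Hist1h2bg, 2.75 (SE 0.23) for Hist1h3g and 1.52 (SE 0.12) for Hist1h4i. Hist1h2ae, which did not pass in irradiated over control cells, had a log2 fold change of 2.13 here (SE 0.45, adjusted p = 0.000121). That one of these contrasts passed and the other did not is no test of their difference, for which the direct comparison above gave an adjusted p of 0.409. The libraries did not overlap for 25 of the 26 genes, against 25.5% of all tested genes lying entirely higher, and the exception was Hist1h3b. Its call ended without control replicate 1 (adjusted p = 0.0552), control replicate 2 (0.171), triol-irradiated replicate 1 (0.143) or triol-irradiated replicate 3 (0.12). Hist1h4a was not called without control replicate 2 (adjusted p = 0.0529), control replicate 3 (0.104) or triol-irradiated replicate 1 (0.168).

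Levels between genes were compared per kilobase of exon. In irradiated cells Hist1h2bc stood at 87.1 CPM per kilobase, followed by Hist1h4i at 23.3, Hist2h2be at 21.1, Hist1h2bg at 15.4, Hist1h3g at 9.79 and Hist1h4k at 8.23. In control cells Hist1h2bc stood at 43.9 CPM per kilobase, Hist2h2be at 12.4, Hist1h4i at 7.47, Hist1h2bg at 1.65, Hist1h3g at 1.41 and Hist1h4k at 1.28. Hist1h4i thus stood above Hist2h2be in irradiated and below it in control cells, and in irradiated cells the libraries of the 2 genes overlapped. The annotated exons may not be the transcripts present, so these values rest on the annotated lengths.

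The annotated 3′ ends divide the members. In 19 of the 61 genes, 11 of them tested, the annotated transcript runs more than 300 bases beyond the stop codon. Hist1h2bc, whose transcript has a second exon, runs 742 bases beyond it, Hist2h2be 2192, Hist1h2ac 2058 and Hist1h2be 1906, while Hist1h3g ends 95 bases and Hist1h2bg 200 bases beyond the stop codon. In Hist1h2ac the stem-loop lies 2010 bases before the annotated end, in Hist1h2be 1861, and in Hist1h3g 47. The 19 genes held 85.5% of core histone reads in triol-irradiated, 85.8% in irradiated and 94.7% in control cells. Their sum was 196, 200 and 203 CPM in triol-irradiated, 202, 207 and 197 CPM in irradiated and 96.0, 99.2 and 93.4 CPM in control libraries, a ratio of 2.10 for irradiated over control cells. The other 42 genes summed to 31.6, 32.1 and 37.5 CPM in triol-irradiated, 33.1, 35.0 and 32.5 CPM in irradiated and 4.48, 5.10 and 6.45 CPM in control libraries, a ratio of 6.28. Most of the sum of the 19 genes lay in Hist1h2bc and Hist2h2be. These averaged 101 and 55.4 CPM in irradiated and 50.8 and 32.5 CPM in control cells. Their log2 fold changes, 0.99 and 0.77, were the lowest of the tested genes. The ratio of 2.10 therefore mainly describes this pair and not long ends in general. Among tested genes the median log2 fold change was 1.64 for the 11 with long ends and 2.49 for the 15 others. These were not separate in every case, since Hist2h3c2 and Hist1h4j, with 423 and 430 bases beyond the stop codon, had log2 fold changes of 3.15 and 3.2. The split was drawn with the values known and was not tested. The filter also bears on the medians. Of the 15 others, only Hist1h3g was over its minimum in every control library, and Hist1h2bg in 2 of them. The rest of the 15 entered through the irradiated groups, where they are high, which favours a high median. Some long-ended genes, such as Hist2h3c2, entered in the same way. How messenger RNA was selected for these libraries is not stated in the sources used here. Whether reads of long-ended genes came from the polyadenylated form was not tested.

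**Figure D4:**
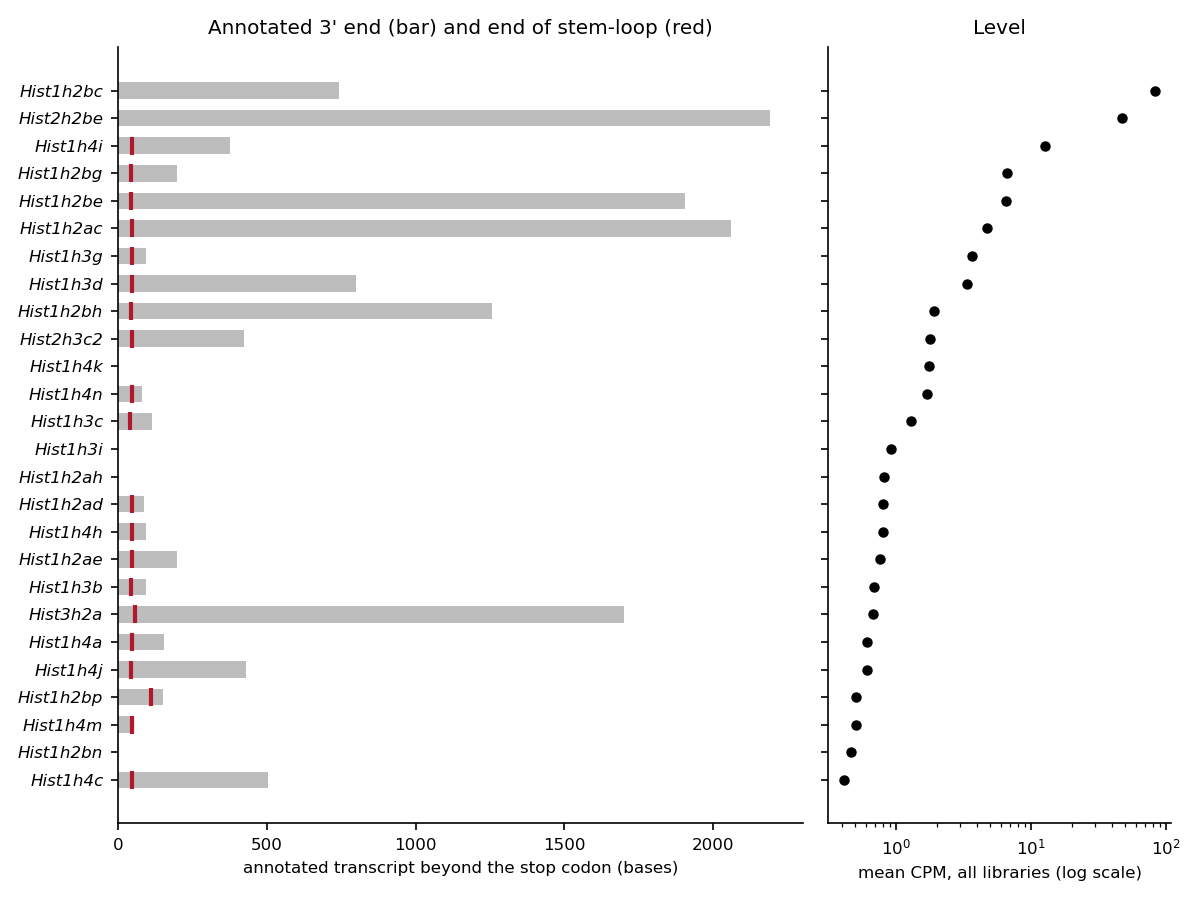
Length of the annotated transcript beyond the stop codon (grey bars, bases) and end of the stem-loop where 1 was found (red), for the 26 tested genes in order of mean CPM over all libraries, which the right panel gives on a log axis. Hist1h2bc and Hist2h2be, at the top, have long ends and no stem-loop match. Genes without a bar have no annotated transcript beyond the stop codon, so no stem-loop could be found there.

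The genes are near copies of each other, which limits what reads can be assigned to one of them. The share of a gene's 50-base stretches found nowhere else in the annotated transcripts ranged from 7.9% (Hist1h2ah) to 100% (Hist2h2be) over the 26 tested genes, with a median of 54.5%. Over the 28 detected but untested genes the median was 34.7%. Stretches shared with another gene annotated over the same place, on either strand, also count as not unique. Of the 7 genes with 0 reads, 5 had no unique stretch at all, namely Hist2h2aa1, Hist2h2aa2, Hist2h3c1, Hist2h3b and Hist2h2bb. Other annotated genes cover 100% of each, for Hist2h3c1 on the same strand and for the others on the opposite strand. Their shares therefore do not tell copies from overlap, and 0 reads does not show that they were silent. The other 2 genes with 0 reads were Hist1h2aa and Hist1h2ba, the testis-specific H2A and H2B genes, at 76.2% and 61.8%. Hist1h2bc was unique over 69.4%, Hist1h4i over 71.1%, Hist1h2ac over 85.9% and Hist1h3g over 45.9% of its length. Values of single genes with low shares, such as Hist1h2ah, Hist1h4m at 10.2%, Hist1h3i at 12.4%, Hist1h2bn at 13.6% and Hist1h4n at 14.4%, are uncertain as to which copy they came from.

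Of the 26 tested genes 23 lie in the Hist1 cluster on chromosome 13, 2 in the Hist2 cluster on chromosome 3 (Hist2h2be and Hist2h3c2) and 1 in the Hist3 cluster on chromosome 11 (Hist3h2a). In irradiated over control cells 22 of the 23 Hist1 genes and all 3 others were called higher, against 22.1% of all tested genes. Of the 26, 18 entered through the irradiated groups, where they are high, which favours these counts. H2A and H2B genes often start back to back, and 12 such pairs had starts at most 500 bases apart. Both partners were tested in 2 pairs. Hist1h2ac and Hist1h2bc start 250 bases apart, and in irradiated cells Hist1h2ac stood at 2.42 and Hist1h2bc at 87.1 CPM per kilobase. Hist1h2ae and Hist1h2bg start 175 bases apart, at 0.902 and 15.4 CPM per kilobase in irradiated cells. In the Hist2 cluster, Hist2h2ac and Hist2h2be start 238 bases apart, and Hist2h2ac had 7 reads over all 9 libraries against 6921 for Hist2h2be. Over the 12 pairs in irradiated cells, the H2B partner was higher per kilobase in 7 and the H2A partner in 4, and both were at 0 reads in 1. An example of a higher H2A partner is Hist1h2ah at 2.59 CPM per kilobase, against Hist1h2bk at 0.242.

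Promoters are shown to describe which of a short list of elements each class carries. Whether these elements bear on the rise of the members was not tested. RefSeq promoters (build GRCm38.p6, 250 bases before to 50 after the start) were matched for 56 of the 61 genes and 24 of the 26 tested ones. 3 motifs were searched on both strands, and none of them contains another. The CCAAT box, bound by the factor NF-Y, was found in 47 of the 56 promoters, against 37.4% of 32851 mouse promoters of the same length. It was in all 18 H2A, all 16 H2B and all 10 H3 promoters and in 3 of the 12 H4 promoters. The TATA box, searched as TATAAA, was in 31 of 56, against 13.6% of all promoters. The octamer ATTTGCAT, bound by POU factors and known as an H2B promoter element, was in 7 H2A, 7 H2B, 0 H3 and 0 H4 promoters, against 1.74% of all promoters. A match describes these letters only. A promoter of each class is given 5′ to 3′ along the gene, with matches to these motifs on either strand in capitals.
Hist1h2ac (H2A), chr13:23683910-23684209, minus strand: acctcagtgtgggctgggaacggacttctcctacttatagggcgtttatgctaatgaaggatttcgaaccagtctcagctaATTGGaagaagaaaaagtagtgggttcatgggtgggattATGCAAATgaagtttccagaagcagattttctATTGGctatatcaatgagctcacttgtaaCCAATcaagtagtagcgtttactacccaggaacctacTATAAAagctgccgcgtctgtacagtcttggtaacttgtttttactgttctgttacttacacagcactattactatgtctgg
Hist1h2bg (H2B), chr13:23571150-23571449, plus strand: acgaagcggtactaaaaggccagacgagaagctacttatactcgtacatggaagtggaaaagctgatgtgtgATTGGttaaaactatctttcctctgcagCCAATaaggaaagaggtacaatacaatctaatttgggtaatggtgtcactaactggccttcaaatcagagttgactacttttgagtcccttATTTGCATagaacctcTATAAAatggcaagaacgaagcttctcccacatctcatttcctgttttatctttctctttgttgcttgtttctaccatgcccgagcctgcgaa
Hist1h3g (H3), chr13:23535168-23535467, plus strand: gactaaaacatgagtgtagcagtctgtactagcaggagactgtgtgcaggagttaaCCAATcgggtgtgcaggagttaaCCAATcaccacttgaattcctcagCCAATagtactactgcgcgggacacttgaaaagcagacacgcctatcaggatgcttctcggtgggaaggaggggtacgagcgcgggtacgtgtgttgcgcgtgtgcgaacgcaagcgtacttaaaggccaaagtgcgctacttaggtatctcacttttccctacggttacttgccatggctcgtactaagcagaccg
Hist1h4i (H4), chr13:22041313-22041612, minus strand: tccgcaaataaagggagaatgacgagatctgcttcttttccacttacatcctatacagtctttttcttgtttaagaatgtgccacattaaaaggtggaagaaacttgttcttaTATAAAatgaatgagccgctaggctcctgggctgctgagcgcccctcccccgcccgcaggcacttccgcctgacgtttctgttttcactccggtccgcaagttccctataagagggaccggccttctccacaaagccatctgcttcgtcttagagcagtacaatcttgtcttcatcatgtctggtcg
The Hist1h2ac stretch holds 3 CCAAT boxes, 1 octamer and 1 TATA box, and the Hist1h2bg stretch 2, 1 and 1. The Hist1h3g stretch holds 3 CCAAT boxes and the Hist1h4i stretch 1 TATA box. None of the 3 motifs was present in all 4 stretches. The Hist1h2ac stretch reaches the annotated start of Hist1h2bc, and the Hist1h2bg stretch holds that of Hist1h2ae, so each is also promoter sequence of the partner gene.

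Linker histone H1 genes, which bind the DNA between nucleosomes and some of which share the clusters and the stem-loop, also rose. All 5 tested of 11 listed were called higher in irradiated than in control cells, against 22.1% of all tested genes. The median log2 fold change was 2.95. Hist1h1d averaged 14.8 ± 0.545 CPM in irradiated and 1.58 ± 0.332 CPM in control cells (SD, n = 3 each), a log2 fold change of 3.2. Hist1h1e and Hist1h1b had log2 fold changes of 3.14 and 2.95. They averaged 0.375 and 0.295 CPM in control cells, under the filter minimum of 0.643 CPM. Both thus entered through the irradiated groups, where they are high, and the median is the value of Hist1h1b. Hist1h1c was at 1.36, and H1f0, a replacement H1 gene outside the clusters, at 0.48.

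Replacement variants are deposited outside S phase, and most of their genes have introns and give polyadenylated transcripts. Of 8 tested genes, 5 rose, 1 fell and 2 were not called in irradiated over control cells, against 44.3% of all tested genes called and 22.1% called higher, with a median log2 fold change of 0.14. H3f3b, which codes for H3.3, averaged 404 ± 8.18 CPM in irradiated and 325 ± 3.17 CPM in control cells, a log2 fold change of 0.32 (SE 0.03). H2afv, an H2A.Z gene, and Cenpa, the centromeric H3, both had a log2 fold change of 0.24. H3f3a, which codes for the same protein as H3f3b, had 0.01 (adjusted p = 0.855).

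Factors of histone messenger RNA processing and transcription were listed with 49 genes, of which 47 were tested. In irradiated over control cells 14 rose, 4 fell and 29 were not called, with a median log2 fold change of 0.04. The 38.3% called in either direction lay below the 44.3% of all tested genes. By direction, 14 of 47 called higher lay above the 22.1% of all tested genes. The 4 of 47 called lower lay below the 2505 of 11295. Slbp, the stem-loop binding protein, averaged 74.6 ± 1.09 CPM in irradiated and 72.3 ± 3.08 CPM in control cells (SD, n = 3 each). Its log2 fold change was 0.04 (95% interval -0.05 to 0.14, adjusted p = 0.472). The called genes with the highest absolute log2 fold changes were Mblac1 at -0.62, a nuclease of histone pre-messenger RNA, Snrpg at 0.49, a subunit of small nuclear ribonucleoproteins, and Nelfe at -0.41, a subunit of the negative elongation factor.

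Of 25 tested histone chaperones, 12 rose, 1 fell and 12 were not called, with a median log2 fold change of 0.11. The called share was 52.0%, against 44.3% of all tested genes, of which 22.1% were called higher. Daxx and Hira, which deposit H3.3, had log2 fold changes of 0.51 and 0.49, and Nasp, which holds the soluble H3 and H4 pool, 0.38. Of 52 tested genes of S phase and replication, 17 rose, 4 fell and 31 were not called, with a median of 0.06. The 40.4% called in either direction lay below the 44.3% of all tested genes. By direction, 17 of 52 called higher lay above the 22.1% of all tested genes. The 4 of 52 called lower lay below the 2505 of 11295. Mcm10, a replication initiation factor, was at 0.71, Ccne1, cyclin E1, at 0.56, and Rfc2, a clamp loader subunit, at -0.46. The largest rise in these last 4 lists, 0.71 (SE 0.05), was below that of every tested core histone gene. The lowest of those was Hist2h2be at 0.77 (SE 0.06), and the difference between these 2 values was not tested. Of the 26 tested core histone genes, 18 entered through the irradiated groups, where they are high, which favours high values among them. In triol-irradiated over irradiated cells 0 genes were called in each of the 5 lists by edgeR, and between 0 and 4 genes of a list had an unadjusted p under 0.05. H2afy and Snrpg were among these, with log2 fold changes of -0.12 and -0.27.

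**Figure D5:**
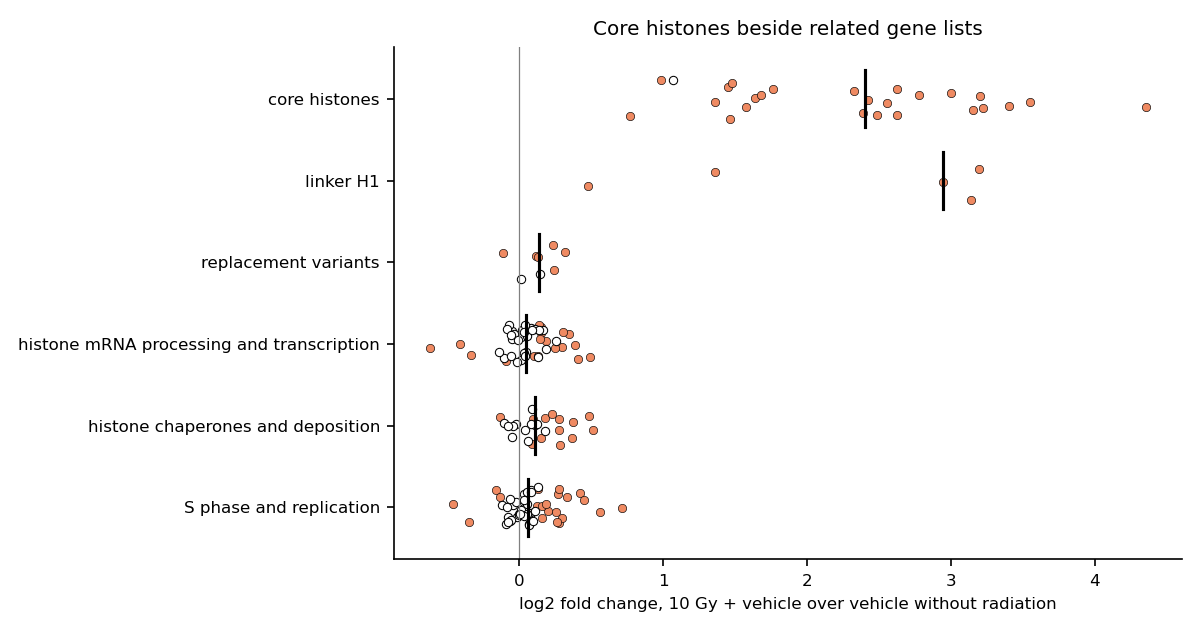
Log2 fold changes in irradiated over control cells of the tested core histone genes and of the genes of 5 related lists (points, filled where the adjusted p was under 0.05), with the median of each list as a line; Hist1h2bn is drawn at its lower bound. Core and linker histones lie mostly above 1 and the other 4 lists lie between -0.62 and 0.71.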

How the data were processed

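The authors deposited whole-number counts of reads per gene for 9 libraries, not normalised. The submitters' processing notes name fastp 0.18.0, FastQC, STAR 2.7.1a, featureCounts and Subread 1.6.3, and build GRCm38. RNA was Trizol-extracted total RNA, prepared with the NEBNext Ultra RNA kit per the labels' protocols. The annotation release, strand setting and handling of multi-mapped reads are not stated in the sources used here, so copies, and genes that overlap on the other strand, cannot be fully told apart.

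Groups were read from the sample titles. filterByExpr kept 11295 genes, which were fitted in 1 model over the 9 libraries with edgeR 4.0.16 in R 4.3.3 (TMM, robust quasi-likelihood F test, two-sided, Benjamini-Hochberg over all tested genes, threshold 0.05). Adjusted p-values come from it unless another tool is named. CPM use TMM library sizes, and per-kilobase values divide them by GENCODE M21 exon length, whose identifiers matched all 21951 genes. The filter minimum was 0.643 CPM in at least 3 libraries. Counting intervals cover counting error only, at 95%. Replicate libraries differed by more than sampling noise.

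Values were given by library for the 3 genes of each class with the highest mean CPM and for tested members not called with radiation or called with triol. Hist1h2bn (0 reads in control cells) and Hist1h4m (unadjusted p with triol) were added by library after their values were seen. In each related list the 3 called genes with the highest absolute log2 fold change were named, and Slbp. Members and lists were chosen with earlier results of these data known. The steps were tested on simulated data.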

Additional observations from a re-analysis of the deposited data

How the results depend on the processing

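The number of called core histone genes kept within 1.5 times its value under every alternative, with 0 to 0 members for triol-irradiated over irradiated, 24 to 27 for irradiated over control and 26 to 30 for triol-irradiated over control cells when single libraries were left out, where the filter keeps other genes. Over all genes, the triol-irradiated over irradiated count was 12, against 20 with DESeq2 1.42.0, 36 with no low-count filter, 22 with only the 2 groups compared and 3 against a fold of 1.2 (glmTreat). It was 6 to 19 when single libraries were left out. Against a fold of 1.2 the other counts were 1098 for irradiated over control and 1040 for triol-irradiated over control cells. Without Hist1h2bc and Hist2h2be, an alternative chosen after seeing the data, the log2 ratio of the sums was 2.11 for irradiated over control and 2.10 for triol-irradiated over control cells, against 1.21 and 1.2.

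The replicate numbers did not pair the libraries, since same-numbered deviations correlated at -0.05 to 0.04. A replicate block gave 22 called genes for triol-irradiated over irradiated cells and changed no count of members called.

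Of 485 values of single members for irradiated over control cells, 23 lost and 2 gained the call, and of 487 for triol-irradiated over control cells 11 lost it, all in the direction first found. With DESeq2 the calls of Hist3h2a, Hist1h4m, Hist1h4h and Hist1h3b ended for irradiated over control cells, and those of Hist1h3b and Hist1h4a for triol-irradiated over control cells. For triol-irradiated over irradiated cells 39 of 466 values changed sign, at most 0.20 from 0 and none with an adjusted p under 0.907. Leaving out single libraries gave Hist2h2be -0.065 to 0.030, Hist1h2ac -0.011 to 0.089, Hist1h3g -0.12 to 0.056 and Hist1h2bc -0.062 to 0.037 there. The cause was not tested. The 35 untested members had at most 22 reads in a library. The parts of depth, of sequence shared between copies and of overlapping genes in this cannot be told apart.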
